A study of Arabidopsis thaliana with 4 samples.

Results

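Seedlings of 2 Arabidopsis thaliana cultivars, Columbia and Nossen, were compared across the transcriptome by setting 2 arrays of one cultivar against 2 of the other. The Columbia side held the Col-0 wild type and OE6, a transgenic Columbia-0 line that overexpresses DUF761-1. The Nossen side held the NO wild type (cultivar Nössen) and the duf761-1 mutant, labelled RATM11-0975-1_H. These 4 arrays were the whole series, and they were assigned to a side by the cultivar given in the labels. Whole plants aged 2 weeks were used, grown at 22 °C on half-strength MS medium that held 2% sucrose. The day had 16 h of light (100 µmol/m2/s) and 8 h of darkness, and 6 µg of total RNA was labelled for each Affymetrix ATH1 array.

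Each cultivar was thus represented by 1 wild type and 1 altered line, with the DUF761-1 gene overexpressed in the Columbia line and disrupted in the Nossen line. OE6 is a single transgenic line, and the labels give neither its promoter nor the number of plants behind an array. No genotype had a replicate array, so the spread within a cultivar includes whatever the line's change did, and the p-values below measure only the spread between these 4 arrays. The labels give no batch and no hour of harvest, so a batch or harvest hour shared by the arrays of 1 cultivar cannot be told apart from the cultivar. The labels also give no locus for DUF761-1, so its own transcript was not read here.

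Natural accessions of Arabidopsis are inbred strains that differ at many loci, and their transcript levels differ through variants near a gene, through presence or absence of gene copies, and through regulators that act on many genes. Known variable pathways among accessions include glucosinolates, the sulfur-rich defence compounds of the mustard family, defence gene clusters, flowering time, and responses to cold and day length. The ATH1 array was designed from the Columbia sequence, and a base difference under a probe lowers its signal, so a low signal in another accession can come from the transcript or from the probe, which was not tested here. A probe set is the group of short probes that reads 1 transcript.

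Columbia seedlings had far more transcript signal than Nossen seedlings for ECS1, a cell wall protein gene (96.4-fold). The same held for CCL, whose transcript is known to be turned over under clock control (29.3-fold), and for the clock gene GI (at least 13.7-fold). Among defensins and cold-regulated genes, PDF1.2 (at least 6.76-fold) and COR15B (at least 5.75-fold) were also higher. Signal in Columbia seedlings was far lower for SWEET2, a sugar transporter (24.2-fold), for the glucosinolate gene AOP3 (at least 10.2-fold) and for the light-signalling factor HYH (at least 9.44-fold). These genes were chosen for a wide gap between the arrays of the cultivars, so the lack of overlap is a condition of their choice. The 3 root marker genes tested, most ubiquitin-specific proteases and most plastid-encoded genes did not pass the test of a cultivar difference. Over all probe sets tested 35.0% passed it, so not passing was the more common outcome throughout.

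The values are deposited MAS5 signal intensities on a linear scale. Signals under 102 were raised to this floor, which is the 40th percentile of all signals once controls are set aside, and a probe set was said to differ when the lower value of one cultivar was at least 2-fold above the higher value of the other. Of 22810 probe sets, 64 are controls and the other 22746 were compared. A probe set above the floor on at least 2 arrays was also tested on the log2 scale with limma, which left 14240 probe sets, and 7740 were above the floor on no array. Above the floor were 61.7% and 61.2% of probe sets on the Col-0 and OE6 arrays, against 58.9% and 58.4% on NO and duf761-1. Median signal split the same way, at 190 and 190 in Columbia against 170 and 168 in Nossen. This offset follows the cultivar, and the calls depended on scaling, as given below. Precision is limited by the number of arrays.

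Of the controls read for RNA integrity, actin set the cultivars far apart, while GAPDH and ubiquitin did not. The 3′ over 5′ ratio of the actin controls was 7.52 and 9.84 on the Col-0 and OE6 arrays, against 1.66 and 1.49 on the NO and duf761-1 arrays. The 3′ probe set carried most of this gap, at 5258 and 5390 in Columbia and 886 and 677 in Nossen, while the 5′ probe set read 700 and 548 in Columbia and 533 and 453 in Nossen. The same ratio was alike in the cultivars for GAPDH, at 1.29 and 1.38 in Columbia and 1.14 and 1.19 in Nossen, and for ubiquitin, at 2.62 and 2.72 in Columbia and 2.6 and 2.58 in Nossen. In a second pair of actin controls the ratio was 1.61 and 2.06 in Columbia against 0.279 and 0.267 in Nossen. The part of the actin difference in the results below was not tested.

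By the 2-fold criterion 760 probe sets were higher in Columbia (3.34% of those compared) and 538 were lower (2.37%), 1298 in all (5.71%). Among the 14240 probe sets tested these were 5.34% higher and 3.78% lower, 9.12% together. limma with Benjamini-Hochberg adjustment placed 2709 probe sets higher in Columbia (19.0%) and 2271 lower (15.9%), 4980 in all (35.0%), at an adjusted p under 0.05. All 1298 probe sets that met the 2-fold criterion were among them, which is a reading of the same arrays and no separate evidence. Among the limma calls, 385 of the higher and 129 of the lower had both arrays of one cultivar at the floor. Such probe sets entered the test through the other cultivar and have no measured spread at the floor, so for these genes a bound on the fold is given below and no p. Most limma calls were small, since 3067 of them (61.6%) differed by less than 2-fold in the mean.

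The median log2 difference over the probe sets tested was 0.02 and the median absolute difference 0.38. Probe sets called by the 2-fold criterion had a median log2 difference of 1.68 where higher and -1.65 where lower. A gap of at least 4-fold between the nearest arrays was seen for 169 probe sets higher in Columbia and 122 lower, and a gap of at least 16-fold for 11 higher and 15 lower. The surplus of higher calls thus disappeared among the widest gaps. It also depended on scaling: 58.6% of called probe sets were higher in Columbia as deposited, 45.5% after scaling to a common median, and 81.9% after scaling to the 18 hybridisation spike-in probe sets.

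**Figure D1:**
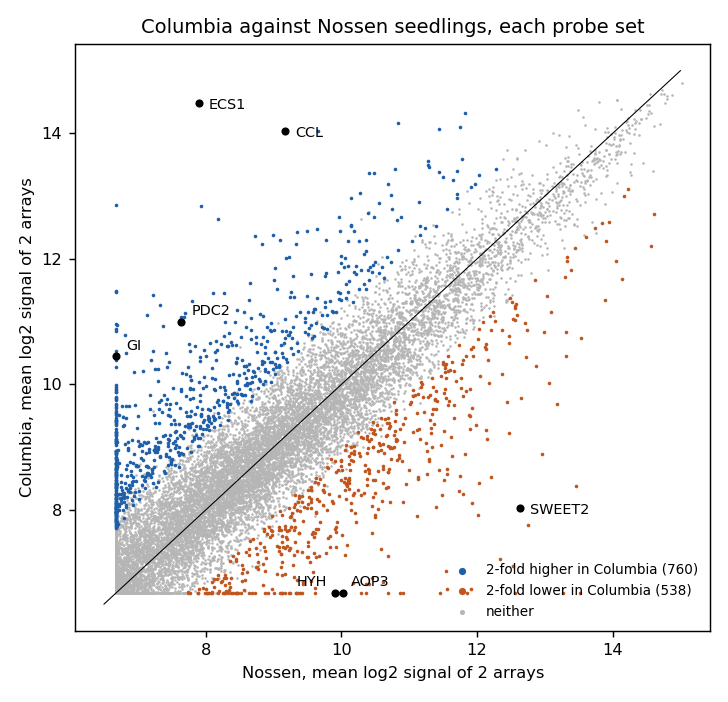
Mean log2 signal of the 2 Columbia arrays (y axis) and of the 2 Nossen arrays (x axis) for each probe set tested, with values raised to the floor of 102 and the diagonal marking equality. The 760 probe sets that were 2-fold higher in Columbia on every pair of arrays are blue and the 538 that were lower are orange; of the genes labelled, ECS1 lies farthest above the diagonal and SWEET2 farthest below.

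The 2 arrays of a cultivar were far more alike than arrays of different cultivars. Within Columbia, 151 probe sets (0.664%) were 2-fold apart between Col-0 and OE6, and within Nossen 112 (0.492%) were 2-fold apart between NO and duf761-1. Across cultivars this share was 9.93% for Col-0 against NO, 9.87% for Col-0 against duf761-1, 9.18% for OE6 against NO and 9.08% for OE6 against duf761-1. The SD of the log2 ratio over the probe sets tested was 0.31 and 0.30 within the cultivars and 0.80 to 0.83 across them.

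The wild-type pair (Col-0 over NO) and the pair of altered lines (OE6 over duf761-1) share no array. Only the wild-type pair compares the cultivars without altered lines. The other pair also sets a DUF761-1 overexpressor against a duf761-1 mutant. The wild types gave 1357 probe sets 2-fold higher in Columbia and the lines 1199, with 853 in common, which is 62.9% of the first and 71.1% of the second. For probe sets lower in Columbia the counts were 902 and 866 with 608 in common, or 67.4% and 70.2%. A probe set 2-fold apart in the wild types was 2-fold apart in the opposite direction in the lines in 1 case each way. Across the 14240 probe sets tested, the log2 ratios of these pairs had a Pearson r of 0.86 and a Spearman rho of 0.79. This is a description across probe sets of the same arrays, which are not independent replicates.

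**Figure D2:**
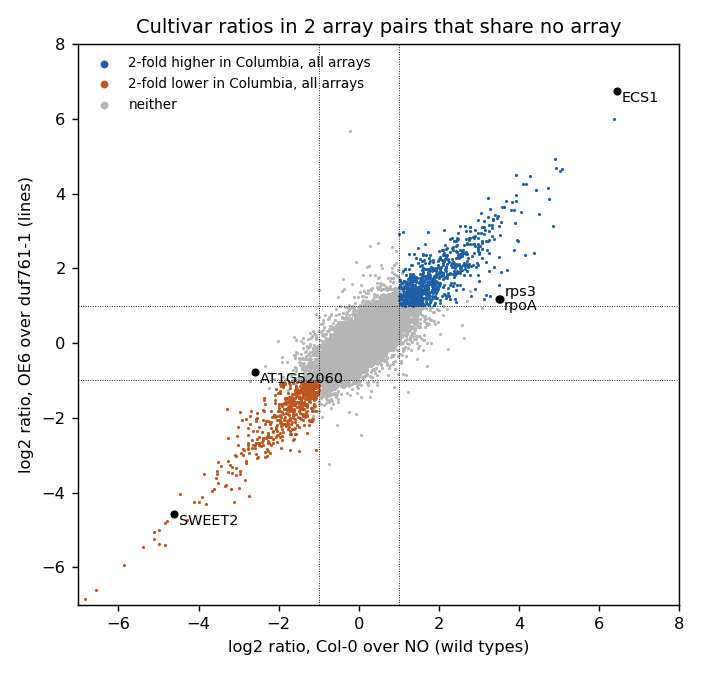
Log2 ratio of Col-0 over NO (x axis) against that of OE6 over duf761-1 (y axis) for each probe set tested, with dotted lines at 2-fold and colours for probe sets called higher (blue) or lower (orange) in Columbia over all arrays. ECS1 and SWEET2 lie near the diagonal, whereas rps3, rpoA and AT1G52060 were 2-fold apart in the wild types and missed the criterion over all 4 arrays.

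The 5 named genes with the widest ratio between the wild types that did not meet the criterion over all arrays were rps3, rpoA, rpl16, AT5G40450 and AT1G52060. The plastid ribosomal protein gene rps3 read 5690 and 7115 on the Col-0 and OE6 arrays, against 493 and 3166 on the NO and duf761-1 arrays (adjusted p = 0.0658). AT1G52060 read 130 and 546 on the Col-0 and OE6 arrays, against 779 and 937 on the NO and duf761-1 arrays (adjusted p = 0.0851). In these genes the NO or the Col-0 array stood apart from its cultivar partner, so a comparison of the wild types alone would have counted them. They were chosen for a wide wild-type ratio that missed the criterion, which favours such a spread. The pair of lines was also 2-fold apart for rps3, rpoA and rpl16, at log2 ratios of 1.17, 1.18 and 1.12. It was not for AT5G40450 (0.13) and AT1G52060 (-0.78). By limma rpl16 passed as higher by a narrow margin (adjusted p = 0.0460).

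Calls in the 2 directions were spread differently over the range of signal. When the probe sets tested were put in 10 equal groups of 1424 by mean log2 signal, higher calls made up 6.81% of the second group, 8.85% of the third and 4.14% of the group with the brightest signals. Lower calls made up 1.76%, 3.23% and 4.07% of the same groups and peaked at 6.32% in the eighth. At the floor the difference was plainer: both Nossen arrays were at the floor for 178 of the higher calls (23.4%), and both Columbia arrays for 55 of the lower calls (10.2%). Regardless of fold, 689 probe sets were above the floor on both Columbia arrays and on neither Nossen array, and 266 the other way round.

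**Figure D3:**
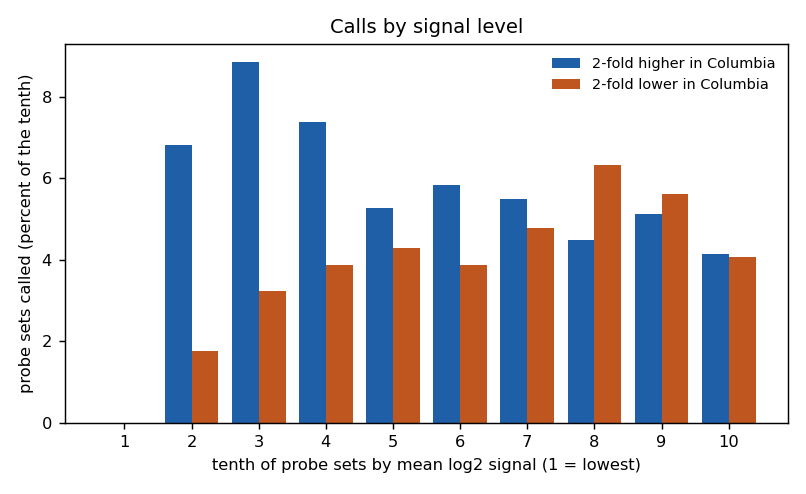
Share of probe sets called (y axis, percent) in each of the 10 groups of probe sets tested, ordered by mean log2 signal from the dimmest (1) to the brightest (10), with calls higher in Columbia in blue and lower in orange. Higher calls exceed lower calls most in groups 2 to 4, and lower calls exceed them in groups 8 and 9.

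One gene is annotated to 632 of the called probe sets, and 102 of these have a gene symbol. Among the 1109 tested probe sets with a symbol, 69 were higher in Columbia (6.22%) and 33 lower (2.98%), 9.20% in all. The genes below are taken mainly from this group. Counts of called members in the gene lists stand against 5.34% higher and 3.78% lower by the criterion, and 19.0% higher and 15.9% lower by limma, over all probe sets tested. They include genes at the floor in one cultivar. A transcript level in whole seedlings can fall because fewer cells of a type are present or because each cell holds less RNA, and these cannot be told apart.

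**Figure D4:**
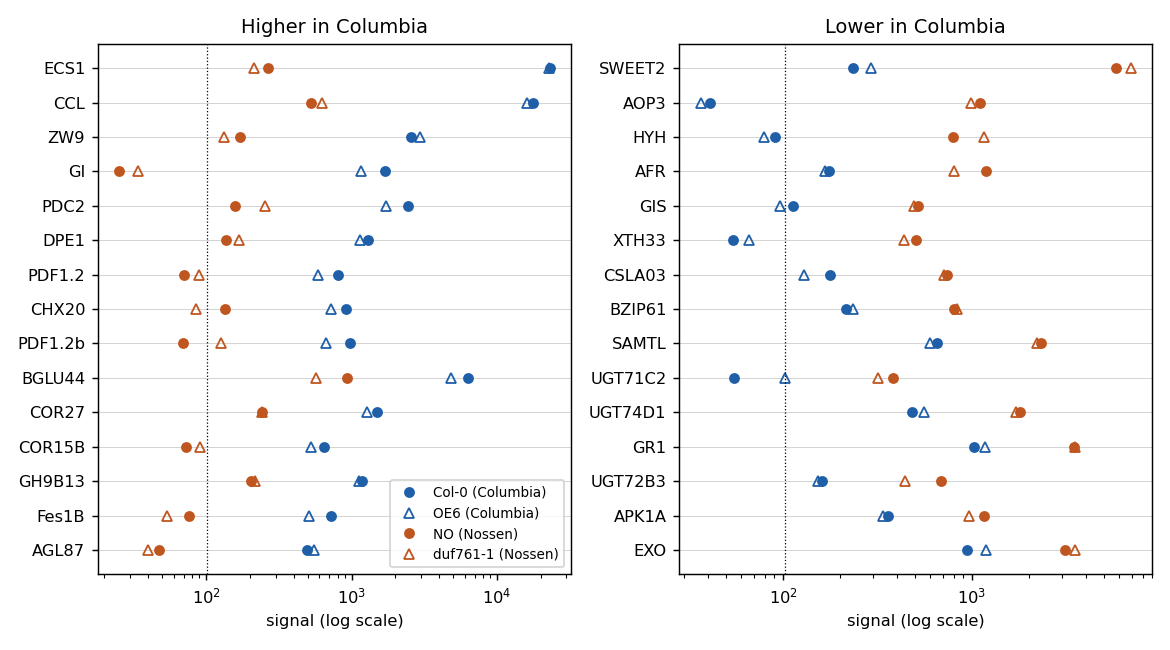
Deposited signal (log scale) on each array for the 15 genes with a symbol that had the widest gaps in each direction, higher in Columbia on the left and lower on the right. Circles are the wild types and triangles the altered lines, blue for Columbia and orange for Nossen. The dotted line is the floor of 102. By the choice of genes, the 2 Columbia arrays lie apart from the 2 Nossen arrays in every gene shown.

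The widest gap of any gene with a symbol was that of ECS1, a cell wall protein gene. ECS1 read 23031 and 22910 on the Col-0 and OE6 arrays, against 264 and 215 on the NO and duf761-1 arrays. Both Columbia arrays were near the top of the signal range and both Nossen arrays near the floor, a log2 difference of 6.59 ± 0.13 (SE), or 96.4-fold (adjusted p = 2.0e-05). ECS1 belongs to the defence and pathogenesis list of 68 genes. Of its 12 members with a probe set, 9 were tested, and 3 met the 2-fold criterion, all higher (5.34% over all tested). By limma 5 were higher and 0 lower (19.0% and 15.9% over all tested). Their median log2 difference was 0.76, beside 0.02 over all probe sets tested.

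Plant defensins, small antimicrobial peptides of which PDF1.2 is the standard read-out of jasmonate and ethylene signalling, made up 3 of these 5 genes (PDF1.2, PDF2.1 and LCR69). PDF1.2 read 807 and 589 on the Col-0 and OE6 arrays, against 70.5 and 89.6 on the NO and duf761-1 arrays. Both Nossen values are under the floor, so the level was at least 6.76-fold higher in Columbia. PDF1.2b read 969 and 666 in Columbia, against 68.8 and 126 in Nossen, a log2 difference of at least 2.82, since the NO value is under the floor. Its sequence is close to that of PDF1.2, and signal may be shared between them. PDF2.1 was at least 5.94-fold higher, at 444 and 828 in Columbia against 77.0 and 84.8 in Nossen. Of 7 defensins tested, 4 were higher and 0 lower by limma, while LCR68 (log2 difference -0.09), PDF1.4 (-0.46, adjusted p = 0.108) and PDF2.5 (0.87, adjusted p = 0.150) did not pass the test.

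The immune genes CSA1 and CHI, outside the lists, were picked from the genes called higher after their values were seen. No tally of immune genes outside the lists was made. CSA1, an immune receptor of the TIR-NBS-LRR class, read 379 and 315 in Columbia against 19.2 and 15.1 in Nossen, which is at least 3.39-fold. CHI, a chitinase gene at AT2G43570, read 521 and 837 in Columbia against 193 and 246 in Nossen (adjusted p = 0.00772). As called genes, both have Nossen arrays below both Columbia arrays by the criterion itself.

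Genes that cycle over the day were among those with the widest gaps. GI, the clock protein GIGANTEA that promotes flowering in long days, read 1684 and 1158 on the Col-0 and OE6 arrays, against 25.4 and 34.2 on the NO and duf761-1 arrays. Both Nossen arrays were under the floor, so GI was at least 13.7-fold higher in Columbia. CCL, a gene whose transcript is known to be turned over under clock control, read 17705 and 16022 in Columbia against 523 and 630 in Nossen, or 29.3-fold. These were the 2 members of the circadian list that could be tested, of 33 listed and 3 with a probe set.

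Light signalling genes lay on the other side. HYH, the bZIP factor that acts with HY5 in seedling light responses, read 90.2 and 78.9 on the Col-0 and OE6 arrays, against 796 and 1164 on the NO and duf761-1 arrays. It was at least 9.44-fold lower in Columbia, where both arrays were under the floor. AFR, an F-box protein of far-red light responses, read 174 and 166 in Columbia against 1181 and 800 in Nossen, a log2 difference of -2.51 ± 0.22. Both tested members of the light list were thus lower in Columbia, of 47 listed and 3 with a probe set.

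The cold-regulated genes that could be measured were mostly higher in Columbia. Of 27 listed, 6 had a probe set and all 6 were tested. Of these, 3 met the 2-fold criterion and 5 were higher by limma (19.0% over all tested), with a median log2 difference of 1.5. COR15B, which encodes a chloroplast protein that protects membranes in freezing, read 649.6 and 529 on the Col-0 and OE6 arrays, against 73.1 and 91.0 on the NO and duf761-1 arrays, at least 5.75-fold. COR27, a cold-induced gene that also cycles with the clock, read 1500 and 1273 in Columbia against 243 and 240.3 in Nossen, a log2 difference of 2.52 ± 0.15. STZ, a zinc-finger repressor induced by cold and salt, read 626 and 704 in Columbia against 204 and 187 in Nossen, or 3.4-fold.

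The dehydrins of this list differed less. COR47 read 5239 and 5337 in Columbia against 2340 and 2961 in Nossen, a log2 difference of 1.01 (adjusted p = 0.00384). LTI30 had a log2 difference of 1.24 (adjusted p = 0.00762). COR15A, the neighbour in function of COR15B, read 123 and 130 in Columbia against 69.0 and 36.8 in Nossen, both under the floor, and did not pass limma. GI, CCL and COR27 are known to change over the day, and the hour of harvest was not given.

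Flowering regulators were less clear. LD (LUMINIDEPENDENS), a promoter of flowering, read 286 and 257 in Columbia against 120 and 123 in Nossen, a log2 difference of 1.16 ± 0.16. AGL24, a MADS-box activator of flowering, also passed the test at 1.13 (adjusted p = 0.0315). The AP2-type repressor SMZ and the RNA-processing factor FY did not pass it, at -0.19 and -0.31. Of the 51 genes listed, 5 had a probe set and 4 were tested.

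Among genes with a symbol, the sugar and starch list held the widest gap on the Nossen side. SWEET2, a vacuolar sugar transporter, read 236 and 291 on the Col-0 and OE6 arrays, against 5781 and 6940 on the NO and duf761-1 arrays. Its level was 24.2-fold lower in Columbia (log2 difference -4.60 ± 0.16, adjusted p = 8.23e-05). Most other transporters of the family differed less: SWEET1 (-0.54) and SWEET16 (-0.72) were lower by limma, and SWEET11 (0.14) and SWEET17 (0.10) did not pass the test. SAG29, which is SWEET15, was above the floor in Columbia alone, at 219 and 806 against 19.4 and 9.46 in Nossen, but its Columbia arrays were far apart.

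Some enzymes of starch metabolism were higher in Columbia. DPE1, the plastid disproportionating enzyme that recycles short glucans from starch, read 1298 and 1142 on the Col-0 and OE6 arrays, against 137 and 169 on the NO and duf761-1 arrays, 8.00-fold. PWD at AT5G26570, the dikinase that phosphorylates starch granules and chosen after its values were seen, read 4669 and 3298 in Columbia against 1067 and 984 in Nossen. APL3, a large subunit of the ADP-glucose pyrophosphorylase that feeds starch synthesis, read 167 and 185 in Columbia and was under the floor in Nossen. The amylase AMY1 read 123 and 620.4 in Columbia against 52.8 and 53.2, both under the floor, in Nossen, and did not pass limma. Vacuolar monosaccharide transporters split, with TMT1 at -0.67 and TMT2 at 0.75, both past the test. Of the 14 list members tested, 4 were higher and 5 lower by limma, and the median log2 difference was 0.17, or 0.00 after scaling to a common median.

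PDC2, a pyruvate decarboxylase of ethanol fermentation, read 2448 and 1718 in Columbia against 158 and 252 in Nossen. This 10.3-fold difference (adjusted p = 0.000805) was the only tested value of the hypoxia list. PPDK, which converts pyruvate to phosphoenolpyruvate, lay on the other side at 1342 and 1222 in Columbia against 3432 and 3619 in Nossen. AKINBETA1, a subunit of the sugar-sensing SnRK1 kinase, was also lower, at 1278 and 1080 in Columbia against 2793 and 3114 in Nossen. The last 2 genes were chosen after their values were seen.

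Of 57 glucosinolate genes listed, 4 were measured, and the side-chain gene AOP3 stood apart from the other 3. The AOP locus is known to vary between accessions, which differ in which of its genes is expressed and so in the form of the glucosinolate side chain. AOP3 read 41.3 and 36.7 on the Col-0 and OE6 arrays, against 1103 and 988 on the NO and duf761-1 arrays. It was at least 10.2-fold lower in Columbia, where both arrays were under the floor. Its neighbour AOP1 read 280.3 and 271 in Columbia against 349 and 270.2 in Nossen and did not pass the test (-0.15, adjusted p = 0.563). BCAT4, which starts methionine chain elongation, and UGT74B1, the S-glucosyltransferase of the core pathway, passed it with small differences of 0.54 and 0.51. UGT74B1 did not pass without the Col-0 array (adjusted p = 0.105), the NO array (0.0652) or the duf761-1 array (0.0861).

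The flavonoid pathway gave opposite results for its glycosyltransferases. UGT78D1, which adds rhamnose to flavonols, read 394 and 365 on the Col-0 and OE6 arrays, against 96.7 and 100.03 on the NO and duf761-1 arrays, at least 3.72-fold higher in Columbia. UGT78D2, which adds glucose to flavonols and anthocyanins, read 422 and 434 in Columbia against 1084 and 1125 in Nossen, a log2 difference of -1.37 ± 0.13. CHIL, a chalcone isomerase-like protein, was lower in Columbia by a narrow margin (-0.95, adjusted p = 0.0442), and did not pass without the Col-0 array (adjusted p = 0.131) or without the NO array (adjusted p = 0.123). Only these 3 of the 40 pathway genes listed could be tested.

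UDP-glycosyltransferases, the large family that attaches sugars to hormones and secondary metabolites, differed in both directions. Of 28 tested, 5 met the 2-fold criterion as higher and 4 as lower, and limma placed 10 higher, 7 lower and 11 in neither class. The family median was 0.07, which turned to -0.10 after median scaling. UGT74D1, known to glycosylate auxins, read 479 and 555 in Columbia against 1793 and 1717 in Nossen, 3.4-fold lower. UGT72B3 was 3.51-fold lower in Columbia, at 160.4 and 154 against 689 and 441 in Nossen. UGT71C2 was at least 3.41-fold lower, at 55.1 and 102 in Columbia against 380.4 and 318 in Nossen. On the higher side, UGT71B1 (1.44), UGT85A2 (1.36), UGT80B1 (1.25) and UGT76E11 (1.21) met the criterion along with UGT78D1.

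Cytochrome P450s of subfamily CYP71B, some of which make indole defence compounds, met the criterion in 1 direction only. Of 11 tested, 5 were higher in Columbia and 0 lower by both readings, where 5.34% of all tested were higher by the criterion and 19.0% by limma. The median log2 difference was 0.59 (0.93 after spike-in scaling). CYP71B22 read 859.7 and 496 on the Col-0 and OE6 arrays, against 28.7 and 8.49 on the NO and duf761-1 arrays, at least 6.40-fold. CYP71B28 read 686 and 646 in Columbia against 170.1 and 136 in Nossen, 4.38-fold. CYP71B22, CYP71B23, CYP71B24 and CYP71B26 lie in a run of 11 genes in the TAIR10.1 gene order in which 7 genes have CYP71B symbols, and all 4 that could be tested were higher in Columbia. Close paralogs lie side by side in this run and may share signal. The other 6 CYP71B genes tested, among them CYP71B6 (0.59, adjusted p = 0.0507) and CYP71B37 (0.00), did not pass the test.

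Cell wall and growth genes differed in both directions. Of 16 tested members of the wall list, 3 were higher and 5 lower by limma (19.0% and 15.9% over all tested). Of the 16 differences 13 were below 0, with a median of -0.39 (-0.16 after spike-in scaling). XTH33, a xyloglucan endotransglucosylase that loosens walls, read 54.6 and 65.8 on the Col-0 and OE6 arrays, against 506 and 435 on the NO and duf761-1 arrays, at least 4.60-fold lower. XTH19 (-1.41), XTH32 (-0.87) and EXGT-A3 (-0.99) were also lower by limma. The XTH family had no member above 0 among the 5 tested.

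Expansins, which loosen walls without cutting them, did not move as a group. EXLB1 was higher in Columbia, at 589.8 and 332 against 133 and 137 in Nossen (adjusted p = 0.00763), and EXLA2 was at least 2.33-fold lower, at 62.5 and 86.7 against 243 and 232 in Nossen. Of 8 alpha expansins tested, EXPA4 alone passed the test (0.81), and EXPA9 (-0.02) and EXPA15 (-0.13) were near 0. GH9B13, a glycoside hydrolase of the endoglucanase family, read 1176 and 1118 in Columbia against 202 and 216 in Nossen, 5.48-fold. CSLA03, a mannan synthase family member, lay on the other side at 178 and 130 in Columbia against 740 and 713 in Nossen. EXO, a brassinosteroid-induced growth gene, was 3.14-fold lower in Columbia, at 946 and 1184 against 3119 and 3530 in Nossen, and SKU5, a growth-direction protein chosen after its values were seen, had a log2 difference of -1.28.

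All 7 tested members of the auxin list had differences below 0 as deposited, with a median of -0.61 (-0.27 after spike-in scaling). WES1, the GH3.5 enzyme that conjugates auxin to amino acids, read 938 and 873 on the Col-0 and OE6 arrays, against 2414 and 1881 on the NO and duf761-1 arrays (log2 difference -1.24 ± 0.15, adjusted p = 0.00272). The related enzyme GH3.17 (-0.88) and the repressor IAA18 (-0.61) also passed the test. The other 4, among them the kinase WAG2 (-0.23) and the glucosyltransferase IAGLU (-0.29), did not. WAG2 and IAGLU read 394 and 1612 on the Col-0 array and 189.8 and 859.8 on the OE6 array, so the Columbia arrays were far apart.

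Transcription factors and regulators outside these lists were found in both directions. AGL87, a MADS-box gene, read 497 and 549 on the Col-0 and OE6 arrays, against 47.7 and 39.7 on the NO and duf761-1 arrays, at least 5.12-fold higher. GIS, a zinc-finger promoter of trichome formation, read 112 and 96.3 in Columbia against 517 and 494 in Nossen, at least 4.72-fold lower because the OE6 value is under the floor. BZIP61 was 3.66-fold lower in Columbia, at 214 and 234 against 803 and 838 in Nossen. APK1A, a protein kinase, was 3.04-fold lower, at 358 and 338 in Columbia against 1165 and 959 in Nossen. ZW9 read 2575 and 2953 in Columbia against 169.9 and 132 in Nossen, 18.4-fold higher.

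Genes of redox and sulfur metabolism also differed. GR1, a glutathione reductase that keeps glutathione in its reduced form, read 1025 and 1177 on the Col-0 and OE6 arrays, against 3450 and 3509 on the NO and duf761-1 arrays (-1.66 ± 0.12, adjusted p = 0.000511). GSTL3, a lambda-class glutathione transferase, was higher in Columbia, at 4186 and 3353 against 965 and 1144 in Nossen, 3.56-fold. Among 10 glutathione transferases tested, 5 were higher and 1 lower by limma (19.0% and 15.9% over all tested). Their median was 0.46 (0.29 after median scaling and 0.80 after spike-in scaling), and GSTU16 (0.29) did not pass. SAMTL, an S-adenosylmethionine transporter-like protein, was 3.59-fold lower in Columbia, at 655 and 602 against 2306 and 2208 in Nossen. MSRB5, a methionine sulfoxide reductase, and GME, an enzyme of ascorbate synthesis, had log2 differences of 2.21 and -1.27 and were chosen after their values were seen.

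Of 59 genes listed for nitrate and amino acid use, 8 had a probe set and 6 were tested. By limma 4 were lower in Columbia and 0 higher (15.9% and 19.0% over all tested), with a median of -0.94 (-0.61 after spike-in scaling). MCCA (-1.05), MCCB (-0.98) and IVD (-0.90) are the mitochondrial enzymes of leucine breakdown, and all 3 passed the test without reaching the 2-fold criterion. MGL (-0.12), which breaks down methionine, and ASPGA1 (0.71, adjusted p = 0.0890), an asparaginase, did not. In the iron and zinc list, CCS, the copper chaperone of superoxide dismutase, was lower in Columbia (-1.66, adjusted p = 0.0166), and PYE (-0.10) and MT1C (0.13) did not pass.

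Among membrane and chaperone genes with wide gaps were CHX20 and Fes1B. CHX20, an endomembrane potassium exchanger of guard cells, read 915 and 719 on the Col-0 and OE6 arrays, against 135 and 85.7 on the NO and duf761-1 arrays, at least 6.93-fold higher because the duf761-1 value is under the floor. Fes1B, an HSP70 co-chaperone, was at least 5.93-fold higher in Columbia, at 721 and 508 against 76.4 and 53.9 in Nossen. BGLU44, a member of the beta-glucosidase family, read 6338 and 4856 in Columbia against 925 and 566 in Nossen, 7.67-fold. In the other 9 beta-glucosidases tested, 3 were higher and 1 lower by limma and none met the 2-fold criterion.

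Families without such wide gaps varied in the share of members that passed. Of 12 ubiquitin-specific proteases tested, 2 were higher in Columbia by limma and 10 did not pass, with differences between -0.30 and 0.57. Ubiquitin-conjugating enzymes gave 3 higher and 7 that did not pass, and IQ-domain proteins 1 lower and 6 that did not. Vacuolar sorting proteins gave 6 higher, 1 lower and 2 that did not pass (19.0% higher and 15.9% lower over all tested), with a median of 0.57 (0.40 after median scaling and 0.90 after spike-in scaling). TRM proteins, which share a TON1 recruiting motif, gave 1 higher, 4 lower and 1 that did not pass (19.0% higher and 15.9% lower over all tested). Their median was -0.89 (-1.06 after median scaling and -0.55 after spike-in scaling). Among the vacuolar sorting and TRM proteins, VPS20.1 met the 2-fold criterion as higher and TRM20 as lower.

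**Figure D5:**
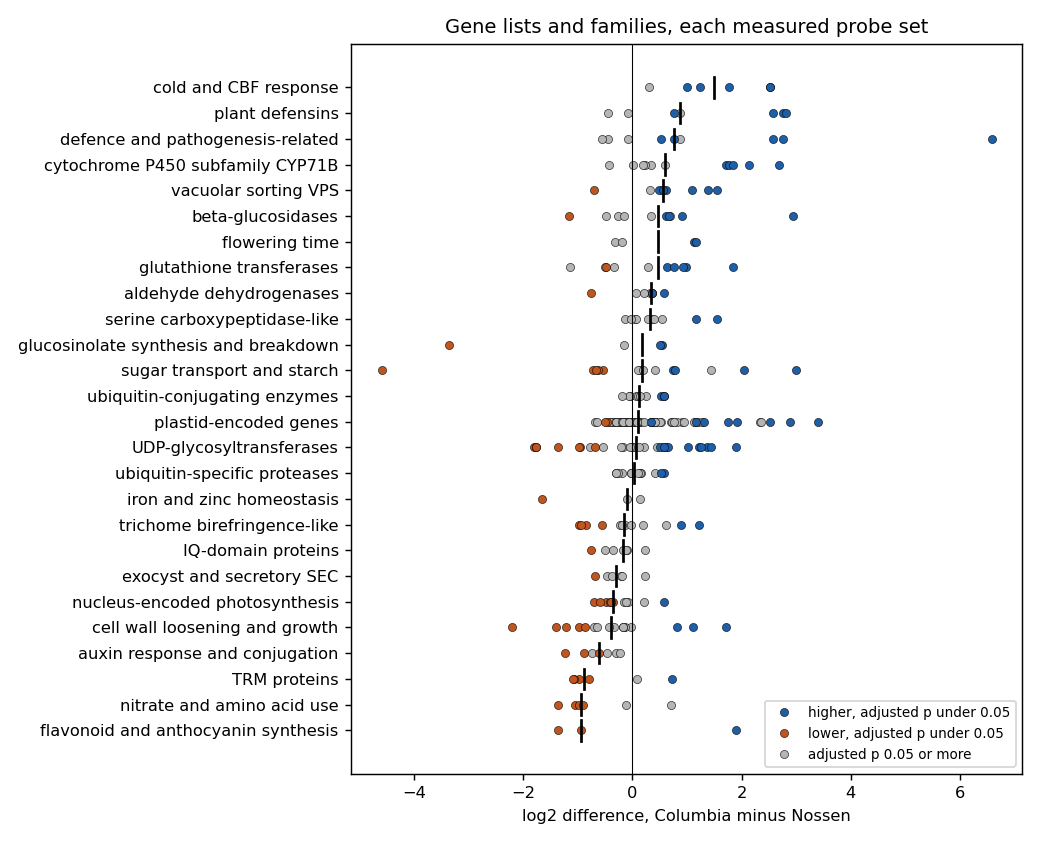
Log2 difference of Columbia minus Nossen (x axis) for each tested probe set of the gene lists and families, 1 group to a line, ordered by median (black bar). Blue and orange points passed limma at an adjusted p under 0.05 as higher or lower in Columbia and grey points did not; cold genes and defensins lie mostly right of 0, auxin genes lie left of it, and UDP-glycosyltransferases lie on both sides.

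Markers of organs were compared as a check of what the seedlings held. The 4 leaf markers with a probe set, all photosynthesis genes, summed to a signal of 54786 to 56305 in Columbia and 71451 to 73763 in Nossen. By limma 3 of 4 were lower in Columbia and 0 higher (15.9% and 19.0% over all tested), and 0 met the 2-fold criterion. Of these, PSAN (-0.41) lost its call in several settings, among them spike-in scaling (-0.07). The median of the 4 went from -0.44 to -0.11 under that scaling. RCA, which activates Rubisco, differed by -0.48 and SBPASE, a Calvin cycle enzyme, by -0.60, while the antenna protein LHCB4.1 read 18061 and 17984 in Columbia against 20409 and 19626 in Nossen and did not pass (adjusted p = 0.293). Of 11 nucleus-encoded photosynthesis genes, 6 were lower and 1 higher by limma (15.9% and 19.0% over all tested), and 0 met the 2-fold criterion. Their median of -0.36 shrank to -0.02 after spike-in scaling. The 4 root markers summed to 16328 to 17063 in Columbia and 16381 to 17027 in Nossen, 0 of 3 tested passed, and PYK10, the glucosidase of root ER bodies, differed by 0.01. The single seed storage marker and both flower markers with a probe set were under the floor on all 4 arrays.

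Of 67 plastid-encoded transcripts tested, 4 met the 2-fold criterion, all higher in Columbia, a smaller share than the 9.12% over all tested. limma placed 8 higher and 2 lower, and 57 did not pass. The 4 were the ribosomal protein genes rpl36, rpl14, rpl22 and rps16. Among the rest of the limma calls, the cytochrome gene petG (1.17) and the photosystem gene psbF (0.34) were higher and psaA (-0.47) and ndhK (-0.50) lower. rpl36 read 4746 and 6057 on the Col-0 and OE6 arrays, against 229 and 1130 on the NO and duf761-1 arrays (3.4 ± 0.69, adjusted p = 0.0136). In rpl14 the values were 1151 and 1503 in Columbia against 58.7 and 306 in Nossen. The NO array lay far below the duf761-1 array in all 4.

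Genes known here by a locus code alone held some of the widest differences. AT1G23130 read 8413 and 6497 on the Col-0 and OE6 arrays, against 48.9 and 46.4 on the NO and duf761-1 arrays, at least 72.5-fold higher. AT3G62550 was 30.1-fold higher in Columbia, at 7619 and 7123 against 256 and 233 in Nossen. AT4G34950 was at least 18.6-fold higher, at 1829.6 and 1963 in Columbia against 55.8 and 49.5 in Nossen. In the other direction, AT3G28220 read 54.5 and 112 in Columbia against 2894 and 3168 in Nossen, at least 28.3-fold lower because the Col-0 value is under the floor. AT1G64500 was 22.8-fold lower, at 145 and 118 in Columbia against 2847 and 3114 in Nossen. AT2G41250 was 17.3-fold lower, at 261 and 223 in Columbia against 4119.6 and 4199.6 in Nossen.

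Genes read by more than 1 probe set give a check within the arrays, since a base difference under the probes of one set need not touch the other. There were 77 such genes, 10 of them with a called probe set. In 2 all probe sets were called the same way: AT5G54130, with log2 differences of -2.07 and -2.24, and AT2G43160, with -1.53 and -1.17. No gene had probe sets called in opposite directions. In the rest of the genes with a call, 1 of the 2 probe sets met the criterion and the other did not. Over all 77 genes, most of them without a call, the range over the probe sets of a gene had a median of 0.30 on the log2 scale and a largest value of 2.52. Among the genes with a call it ran from 0.17 in AT5G54130 up to that largest value.

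That largest value belonged to AT1G33680. One of its probe sets read 329.8 and 212 on the Col-0 and OE6 arrays, against 87.4 and 76.1 on the NO and duf761-1 arrays, a difference of at least 1.37. The other read 459 and 336 in Columbia against 802 and 936 in Nossen, a difference of -1.14. The arrays of the cultivars did not overlap in either probe set, and the second passed limma (adjusted p = 0.00826). AT1G21580 (-0.50 and 1.02) and AT4G02480 (-0.67 and 0.60) each had probe sets that passed in opposite directions, and AT1G23440 gave 1.46 and -0.01. The lower value of AT1G21580 did not pass once any 1 array was left out (adjusted p of 0.138 to 0.226), nor did the higher value of AT4G02480 without Col-0 (0.158), NO (0.0657) or duf761-1 (0.0859). A single probe set therefore does not fix the direction of a gene in every case.

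Called genes were sometimes neighbours on the chromosome. Among 2322 adjacent pairs in which both genes were measured, 19 had both genes called in the same direction, 14 of them higher and 5 lower, and 6 had them called in opposite directions. In 313 pairs 1 gene was called and in 1984 neither was. Over all probe sets tested 5.34% were called higher and 3.78% lower. Whether neighbours shared a direction more often than these shares would give was not tested. Among the pairs higher together, CYP71B22 and CYP71B23 are close paralogs that may share signal. The pairs AT5G62350 and AT5G62360 (2.29 and, with Nossen at the floor, at least 4.29) and AT4G30650 and AT4G30660 (3.54 and 2.96) were higher together. DPE1 (3.0) and its neighbour AT5G64850 (-2.77) were called in opposite directions.

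The genes with a symbol closest to the 2-fold limit show how narrow it is. PHV, a homeodomain factor of leaf polarity, met it with a gap of 2.00 at 308 and 274 in Columbia against 137 and 121 in Nossen. TSC10A, a sphingolipid enzyme, missed it at 596 and 660.4 in Columbia against 1353 and 1320.1 in Nossen, a gap of 1.999 that rounds to the same figure.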

How the data were processed

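The authors deposited linear signal intensities per probe set, made with MAS5 per the submitters' processing notes; its version is not given in the sources used here. With 2% of values trimmed at either end, every array averages 500, so a difference in total mRNA cannot be seen. The genome build is not given in the sources used here, and all 4 sample columns were used.

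Intensities under 102 were raised to it, log2 was taken, and Columbia minus Nossen was fitted over 14240 probe sets above the floor on at least 2 arrays with limma 3.58.1 (R 4.3.3; lmFit, eBayes with a trend, 2 residual degrees of freedom, Benjamini-Hochberg adjustment). Fold changes with one side at the floor are bounds. The 2-fold criterion was applied as stated in the report. On simulated arrays of 14240 probe sets, 200 were changed, all with mean signals well above the floor. Noise was normal, with a spread pooled by signal level. limma recovered 100 of 100 changes of 1.5 and 100 of 100 of 2.5 on the log2 scale, with 10 false calls. No smaller change was simulated, whereas 4980 probe sets were called in the data and most of them differed by less than 2-fold. The simulation therefore does not give the recovery or the error rate of those calls. Changes with 1 cultivar at the floor, or with a spread unlike that of their level, were not simulated, so their recovery was not tested.

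Of the probe sets, 13513 carry 1 gene in the annotation given, 503 several and 8730 none here. Symbols came from the TAIR10.1 reference gene table, which held 13436 of them and gave 1580 probe sets a symbol. It served for names and gene order only.

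The members, the comparison and the gene lists were chosen with earlier results of these data known. The 22 lists hold 978 entries, of which 151 had a named probe set and 106 were tested, and 4 symbols that matched another gene were removed. Families were formed by symbol. Lists not described in the report were jasmonate and wounding, where the only tested gene, OPCL1, passed (1.22, adjusted p = 0.0463) but not without OE6 (0.117) or NO (0.0894), and heat shock and phosphate starvation, where 0 genes were tested. Named genes are the 15 with the widest gap per direction among genes with a symbol, and 3 per direction among locus codes. Added to these are up to 4 called and 2 least different per list, and the genes whose probe sets differ or agree most. The last 5 were 2-fold apart between the wild types and missed the criterion over all 4 arrays. Alternatives were other scalings, floors, filters and thresholds, and leaving out each array. Spike-in scaling and the families were chosen after seeing the data.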

Additional observations from a re-analysis of the deposited data

Results flagged for a closer look

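One signal outside the gene measurements stood apart. The 3′ to 5′ ratio of the actin control probe sets was 4.52-fold higher on the lowest Columbia array than on the highest Nossen array, at 7.52 and 9.84 on the Col-0 and OE6 arrays against 1.66 and 1.49 on the NO and duf761-1 arrays. A second pair of actin control probe sets gave 1.61 and 2.06 in Columbia against 0.279 and 0.267 in Nossen. With 2 arrays per cultivar no array could be examined as an outlier of its group.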

How the results depend on the processing

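No paired test was run, because the labels carry no replicate numbers that pair arrays across the cultivars. The counts of probe sets higher and lower in Columbia, 760 and 538 by the 2-fold criterion and 2709 and 2271 by limma, stayed within 1.5-fold under quantile normalization, a floor at the 25th percentile, a pseudocount in place of the floor, without cross-hybridising suffixes, without plastid-encoded genes, in probe sets above the floor on all 4 arrays, and without the eBayes trend. Median scaling, which shifted the median difference by -0.16, gave 602 and 722 by the criterion and 3456 lower by limma. Spike-in scaling, chosen after seeing the data, shifted it by 0.32 and gave 1356 and 299 by the criterion and 5224 and 1113 by limma. The floor at the 60th percentile left 442 higher by the criterion. A 3-fold threshold left 300 and 221. With no filter on low values limma called 1042 and 921. Leaving out 1 array gave 964 to 1040 higher and 653 to 731 lower by the criterion, which is met more easily with fewer arrays, and 1702 to 2236 higher and 1619 to 1910 lower by limma; the lowest, 1702, came without Col-0. Over all combinations of a named gene and a setting, no called difference changed sign, 34 lost a call, 32 gained one and 794 did neither; AT1G21580 and PSAN lost theirs most often. UGT71C2 and EXLB1 lost theirs at the 60th percentile floor. That floor of 288 lies above both Columbia values of UGT71C2 and both Nossen values of EXLB1, so it cut their differences directly. The cause of the other changes was not tested. With 2 arrays per cultivar, signals near the floor are the least certain.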

Other observations

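Some called genes of chloroplast and primary metabolism belonged to no list and were looked up after their values were seen. PIFI, a chloroplast protein of electron transport, read 7597 and 6728 on the Col-0 and OE6 arrays, against 1581 and 1863 on the NO and duf761-1 arrays, 4.17-fold higher. CHL, the chloroplast lipocalin that protects against oxidative stress, was 3.58-fold higher in Columbia, at 3686 and 3445 against 971 and 1018 in Nossen. THIC, the first enzyme of the thiamine pyrimidine branch, was 2.56-fold higher, at 6011 and 5717 in Columbia against 2121 and 2469.7 in Nossen. Each met the 2-fold criterion, so its arrays do not overlap between cultivars by definition.

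In some called genes the Columbia arrays stood well apart from each other. OCT1, an organic cation transporter, read 887 and 231 on the Col-0 and OE6 arrays, against 47.5 and 48.6, both under the floor, on the NO and duf761-1 arrays. SBT4.12, a subtilisin-like protease, read 380 and 886 on the Col-0 and OE6 arrays, against 159 and 170.4 on the NO and duf761-1 arrays (adjusted p = 0.0169). The size of their cultivar difference depends on which Columbia array is read.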
